A study of Mus musculus with 9 samples.

Results

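Caudal epiblast-like cells that lack all 3 Cdx genes (Cdx1/2/4-/-, CdxKO) were compared with wild-type cells (WT), using 6 of the 9 libraries of the series. The members were chosen by genotype alone, as 3 WT and 3 CdxKO biological replicates. The remaining 3 libraries came from cells mutant for T, also called Bra (T/BraKO), and served to estimate the spread and for a direct contrast of the mutants. Poly(A) RNA was sequenced from mouse embryonic stem cells that had been grown on fibroblast feeders, parted from them by plating, and then differentiated for 72 h, until day 3, in bFGF at 10 ng per ml. All 3 groups also received LGK974 at 5 uM, an inhibitor of Porcupine that blocks WNT secretion, and in the last part of the culture CHIR99021, a GSK3 inhibitor that switches on β-catenin signalling inside the cell. The study's methods derive all lines from the male HM1 TetON line, which was itself the WT control, and the labels name neither a clone number nor a second line per genotype, so genotype and cell line cannot be told apart. CdxKO cells moreover held no counts from Ddx3y, a gene of the Y chromosome with 1664 to 1769 normalised counts in WT.

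CDX proteins are homeodomain transcription factors that WNT and FGF signals switch on in the posterior epiblast, where they activate Hox genes and help to keep the axial progenitors of the trunk. Embryos without them stop elongating early and form little tissue behind the head and occiput. Cells of this identity express T, Nkx1-2 and Sp5 and can still form either neural or mesodermal tissue. The comparison asked which pathways and gene classes depend on the CDX factors in these progenitors. The account leaves out Hox genes, Y-linked genes and the genes on a list of imprinted genes.

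The mutated genes came first, as a check of the labels. Cdx4 had 161, 60 and 133 normalised counts in WT replicates 1, 2 and 3, and 1.25, 1.79 and 1.88 in CdxKO. With no CdxKO library above 3 counts, Cdx4 was at least 39.4-fold lower, where the bound divides the WT mean by the floor of 3 counts. Cdx2 fell by 2.05 and Cdx1 fell by 1.00 on the log2 scale (DESeq2 Wald test, adjusted p 6.96e-132 and 4.55e-10), and transcripts of both persisted. T, Sox2 and Sox3 did not pass the test (log2 fold changes 0.04, -0.02 and 0.21, adjusted p 0.984, 0.983 and 0.806). With 1 library left out, T passed only without CdxKO replicate 2 and Sox3 only without CdxKO replicate 3. Caudal epiblast markers were detected in both genotypes, but 5 of the 10 checked, Nkx1-2, Cdx2, Wnt3a, Wnt8a and Fgf8, fell and none rose. Cdx2 is itself a mutated gene, so its fall does not bear on cell identity. The summed normalised count of the 10 ranged from 29383 to 36429 in WT and from 19111 to 33737 in CdxKO. This sum includes Cdx2, with a mean of 4199 in WT and 1031 in CdxKO. T had between 10900 and 14760 normalised counts in WT and between 6285 and 19806 in CdxKO. Of the 5 neural markers, Pax6 and Olig2 stayed under 8 normalised counts in the 6 libraries and Neurog2 reached 19.1 in WT replicate 1. Sox1 had 599, 238 and 183 in WT and 398, 346 and 63.0 in CdxKO and was not called (adjusted p 0.754), and Irx3 fell. Total counts ranged from 25124337 to 33577161 per library. The ribosomal RNA gene Rn45s took 4.21% of the counts of CdxKO replicate 1, against 0.580% to 1.69% in the other 5 libraries. T/BraKO replicate 1 stood at 3.69%, and replicate 1 was the highest in each of the 3 groups.

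Between CdxKO and WT, 471 genes rose and 265 fell at an adjusted p of at most 0.05 (DESeq2 with the replicate number as a block, Benjamini-Hochberg adjustment over 13855 genes). These are 3.40% and 1.91% of the genes tested, or 5.31% together. Most changes were small. The median log2 fold change of the called genes was 0.41 among those higher and -0.40 among those lower, and only 32 rose and 49 fell by more than 2-fold. Without Hox, Y-linked and listed imprinted genes, 448 genes were higher and 235 lower. Libraries with the same replicate number were shifted together (correlation of deviations between 0.583 and 0.814 over the 3 pairs, across genes). Most calls needed the matched replicates, and without the block DESeq2 called 56 higher and 60 lower, of which 114 were also called with it. Leaving out 1 of the 6 libraries at a time gave 163 to 414 higher and 105 to 217 lower, lowest without CdxKO replicate 1 for genes higher and without WT replicate 1 for genes lower, and 217 genes kept their call each time. These genes are given the most room below. Normalised counts cannot tell fewer cells of a type from less RNA per cell.

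The 24 genes with the largest changes under the naming rule included secreted signals, receptors and homeodomain factors. In 19 of them the WT and CdxKO libraries did not overlap. Of all 736 called genes, 400 did not overlap, as did 9.88% of all genes tested. The rule takes called genes with large changes in the same direction in each pair, so the count of 19 follows in part from that choice. Hand1 (GRCm38 chromosome 11, 57828705 to 57832818), a helix-loop-helix factor of lateral and extraembryonic mesoderm, showed the largest rise. It had 31.5, 47.4 and 28.0 normalised counts in WT replicates 1, 2 and 3, and 188, 223 and 170 in CdxKO. Every CdxKO library was thus above every WT library, and the log2 fold change was 2.46 (SE 0.27, adjusted p 2.89e-17). Ptgs2, the inducible cyclooxygenase, rose from between 85.8 and 140 to between 241 and 426 normalised counts (log2 fold change 1.47, adjusted p 8.26e-08). Cryab, a small heat shock protein, and Slc7a11, a cystine transporter, rose by log2 fold changes of 1.28 and 1.3 (adjusted p 2.77e-07 and 1.31e-05), with some overlap of the groups. Both rose in each of the 3 matched pairs, which the naming rule required.

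**Figure D1:**
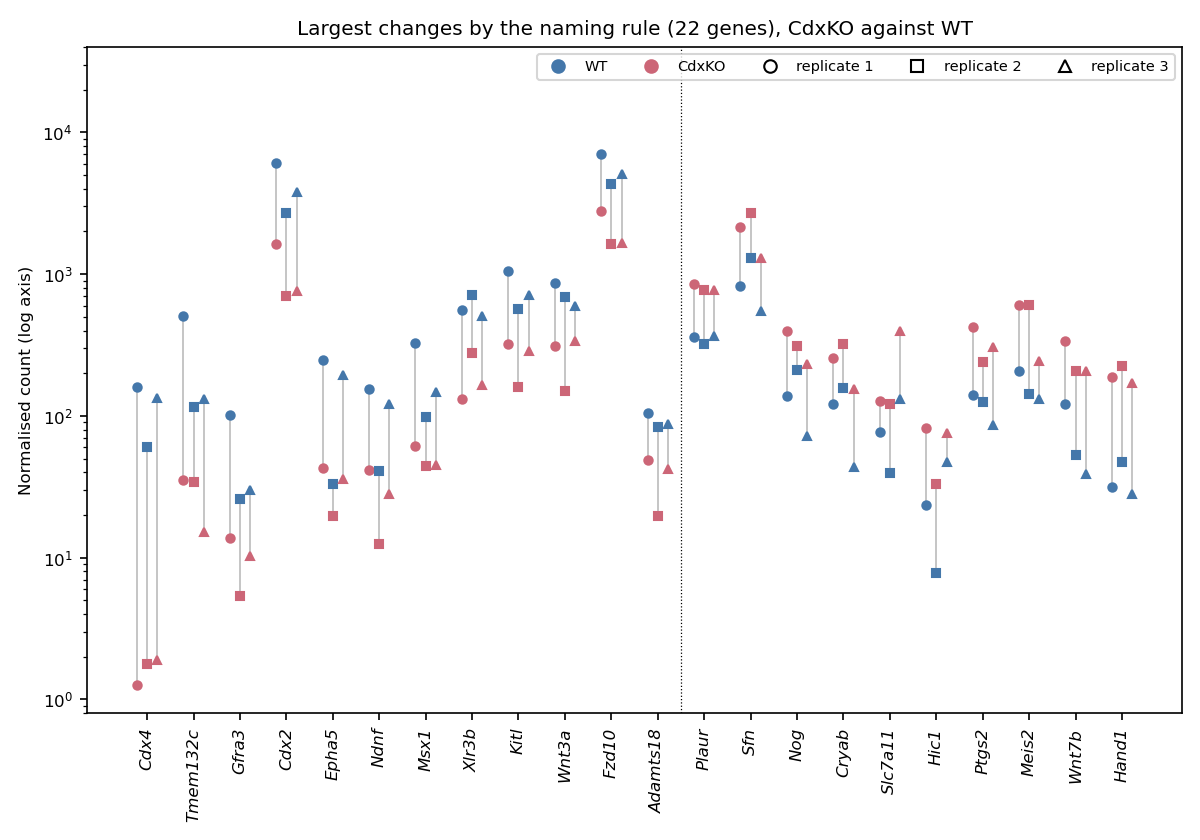
Normalised counts (log axis) of 22 of the genes with the largest changes under the naming rule, with WT in blue and CdxKO in red. A grey line joins each matched pair of replicates. Every pair moves the same way in the 22 genes shown because the naming rule required it. Genes lower in CdxKO are left of the dotted line, and Cdx4 lies at the floor in CdxKO.

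Plaur, the receptor of urokinase, also rose in this group (log2 fold change 1.19, adjusted p 0.0367), with WT libraries between 323 and 365 and CdxKO libraries between 774 and 858. Its call did not hold without WT replicates 1 or 2 or any 1 CdxKO library (adjusted p up to 0.379). Sfn, a 14-3-3 protein of epithelia, and Hic1, a transcriptional repressor, likewise had large estimates (1.24 and 1.39) whose calls were lost without 5 of the 6 libraries in turn (adjusted p up to 0.306 and 0.455). Hic1 also lies in a stretch of chromosome 11 described below.

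Among the genes that fell, several encode ligands and receptors of neural crest, germ cell or axon biology. Kitl (chromosome 10, 100015630 to 100100416), the ligand of the KIT receptor on germ cells, melanoblasts and blood progenitors, had 1046, 570 and 716 normalised counts in WT and 322, 160 and 288 in CdxKO. All CdxKO libraries were below all WT libraries (log2 fold change -1.62, SE 0.15, adjusted p 8.01e-24). Its receptor Kit, chosen after its values were seen, fell from between 1377 and 1518 to between 900 and 1171 normalised counts (log2 fold change -0.53, adjusted p 7.84e-07). Tmem132c, a membrane protein, had 504, 115 and 131 normalised counts in WT and 35.1, 33.9 and 15 in CdxKO (a log2 change of -2.87, adjusted p 1.71e-08), so that its WT mean rests largely on replicate 1. Gfra3, a co-receptor of the GDNF family, and Ndnf, a secreted neurotrophic protein, fell by 2.25 and 1.94 on the log2 scale (adjusted p 4.12e-05 and 6.18e-07). Gfra3 had 101, 26.1 and 29.8 normalised counts in WT and 13.8, 5.36 and 10.3 in CdxKO, so its WT mean also rests largely on replicate 1. Without the libraries numbered 1 its adjusted p was 0.328. The groups of Ndnf overlapped, with 40.6 in WT replicate 2 and 41.4 in CdxKO replicate 1. Adamts18, a secreted metalloprotease, went from between 83.2 and 105 normalised counts to between 19.6 and 48.9 (log2 fold change -1.36, adjusted p 1.57e-04). Xlr3b, an X-linked lymphocyte-regulated gene, had 560, 718 and 504 normalised counts in WT and 132, 279 and 166 in CdxKO (a log2 change of -1.65, adjusted p 9.01e-04). It was not on the list of imprinted genes left out, and its imprinting was not examined. Near-identical copies of Xlr3b exist, so its reads may be shared, and its call was lost without WT replicates 1 or 2 or CdxKO replicates 1 or 3 (adjusted p up to 0.0808).

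Across 31 gene lists with tested members, the share of members called ranged from 0% to 45.5%, against 5.31% of all genes. The highest shares were in the caudal epiblast list, which holds the mutated genes themselves, and then in feeder fibroblast markers, extracellular matrix and the amino acid and stress response.

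**Figure D2:**
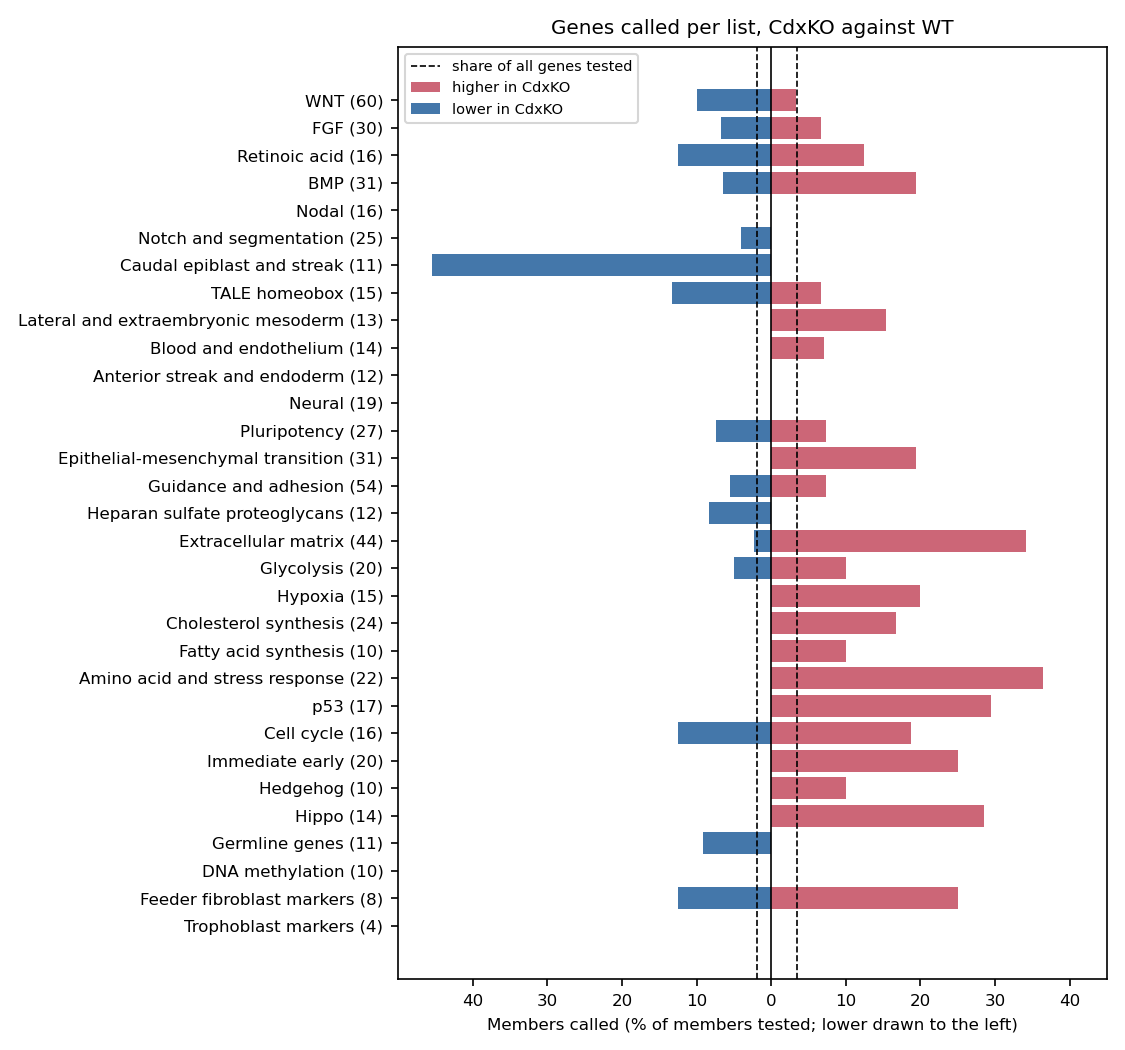
Share of tested members called in each gene list (number tested in parentheses), with members higher in CdxKO to the right in red and lower to the left in blue. Dashed lines mark the shares over all genes tested, 3.40% higher and 1.91% lower. Extracellular matrix and the amino acid and stress response reach furthest to the right, and Nodal, neural and DNA methylation genes have no bar.

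WNT genes changed at the level of ligands and receptors, while no feedback target passed the test. Of 60 WNT genes tested, 2 rose and 6 fell (13.3% called, against 5.31% of all genes tested). Wnt3a (chromosome 11, 59248033 to 59290752), the main ligand of the tail bud, had 860, 694 and 591 normalised counts in WT and 314, 149 and 339 in CdxKO. Its groups did not overlap (log2 fold change -1.49, SE 0.31, adjusted p 1.54e-04). Wnt5a, a ligand that acts mostly without β-catenin, had 1328, 446 and 1389 normalised counts in WT and 770, 251 and 745 in CdxKO. WT replicate 2 was below CdxKO replicates 1 and 3, yet the decrease was alike in each matched pair (log2 fold change -0.84, adjusted p 2.12e-11). Wnt8a, an early ligand of the posterior epiblast, fell by 0.77 on the log2 scale (adjusted p 9.38e-05). Wls, which carries WNT proteins to the cell surface, fell by 0.41 (adjusted p 2.60e-04), a call lost without WT replicate 1 or CdxKO replicate 1 (adjusted p up to 0.150).

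Wnt7b, a ligand of epithelia and of the placenta, went the other way. It had 120, 53.2 and 39.2 normalised counts in WT and 340, 208 and 208 in CdxKO, with no overlap (log2 fold change 1.92, SE 0.29, adjusted p 1.24e-08). Wnt3 was the only other ligand that rose (log2 fold change 0.38, adjusted p 0.00363, outside the naming rule and chosen after its values were seen), and its call held in only 3 of the 6 fits that left out a library. Among the 21 receptors and agonists tested, Fzd10 stood out. This Frizzled receptor (chromosome 5, 128600844 to 128604093) had 7082, 4326 and 5098 normalised counts in WT and 2785, 1625 and 1665 in CdxKO, again without overlap (log2 fold change -1.45, SE 0.07, adjusted p 3.11e-95). On the TPM scale, which allows levels of genes to be compared, Fzd10 went from 131 to 48.2 on average. The only other receptor called was Fzd3 (log2 fold change -0.20, adjusted p 0.0467, also chosen after its values were seen), and that call held in 1 of the 6 fits.

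None of the 5 nuclear mediators and none of the 16 inhibitors or feedback targets of the pathway passed the test. Axin2, the common readout of β-catenin signalling, had mean normalised counts of 6209 in WT and 6088 in CdxKO (a log2 change of -0.03, adjusted p 0.921), and Sp5, Notum and Nkd1 had log2 fold changes of 0.03, -0.01 and -0.01. Since CHIR99021 acts below the receptor and LGK974 blocks secretion in all 3 groups, the levels of these targets do not test the ligands and receptors that changed.

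**Figure D3:**
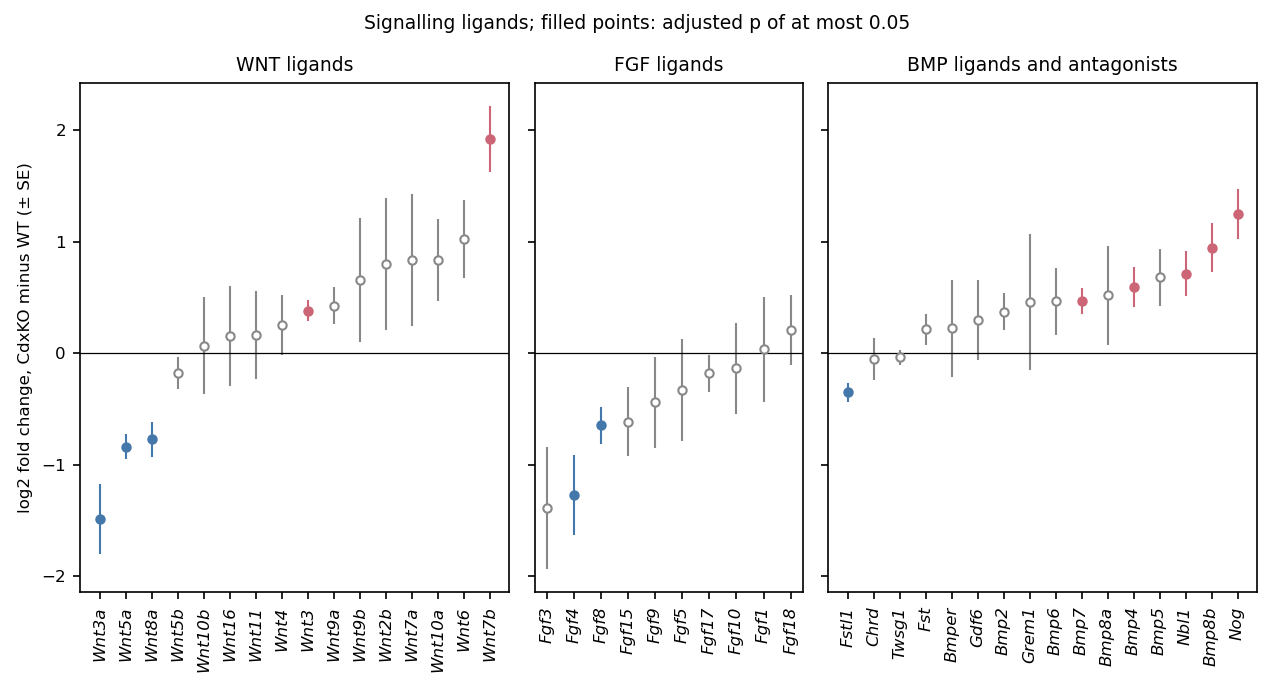
Log2 fold changes (CdxKO minus WT, ± SE) of the tested WNT and FGF ligands and of the BMP ligands and antagonists. Filled points passed the test, red for higher and blue for lower in CdxKO. Wnt3a, Wnt5a and Wnt8a lie below 0 and Wnt7b far above, and among the BMP ligands no point lies below 0.

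Of 31 BMP genes, 6 rose and 2 fell (25.8% called, against 5.31% of all genes tested). Their median log2 fold change was 0.23, against -0.0019 over all genes tested. All 8 ligands tested had positive estimates, between 0.30 and 0.95, and 3 of them rose. Bmp8b had 82.1, 79.3 and 87.6 normalised counts in WT and 174, 162 and 145 in CdxKO, with groups far apart (log2 fold change 0.95, adjusted p 9.01e-04). Bmp7 and Bmp4, ligands that pattern the embryo from its posterior and extraembryonic borders, rose less (0.47 and 0.59, adjusted p 0.00206 and 0.0240). The call of Bmp7 was lost without WT replicates 1 or 3 or CdxKO replicates 1 or 2, and that of Bmp4 without any library other than CdxKO replicate 2 (adjusted p up to 0.110 and 0.325). The antagonist Nog (chromosome 11, 89300638 to 89302332), which binds BMP ligands outside the cell, had 138, 210 and 71.8 normalised counts in WT and 395, 313 and 232 in CdxKO. It rose by 1.25 on the log2 scale (SE 0.22, adjusted p 2.69e-06), and every CdxKO library was above every WT library. Smad7, an intracellular inhibitor, rose and Fstl1, a secreted binder of BMP, fell (0.77 and -0.35, adjusted p 0.01 and 0.00239), each with calls lost in 4 of the 6 fits that left out a library (adjusted p up to 0.320 and 0.192). Msx1, a homeodomain factor commonly induced by BMP, fell. It had 324, 98.7 and 146 normalised counts in WT and 61.4, 44.6 and 45.1 in CdxKO (a log2 change of -1.74, adjusted p 4.74e-09). Nbl1, another secreted antagonist, rose by 0.71 (adjusted p 0.0133, chosen after its values were seen), a call lost in each of the 6 fits (adjusted p up to 0.185). With 1 library left out, 2 to 4 BMP genes were higher, the fewest without WT replicate 3, and 1 to 2 lower. Without the 3 libraries numbered 1, as without the block, 1 was higher and 1 lower. None of the 6 receptors and mediators of BMP passed the test.

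In the FGF list 2 of 30 genes rose and 2 fell (13.3% called, against 5.31% of all genes tested). The ligands Fgf8, which maintains the caudal progenitors, and Fgf4 fell by 0.65 and 1.27 on the log2 scale (adjusted p 0.00401 and 0.0123). Fgf8 had 857, 642 and 677 normalised counts in WT and 547, 317 and 556 in CdxKO, and Fgf4 had 128, 130 and 84.8 against 26.3, 51.8 and 76.2. The groups did not overlap in either gene, but the calls were lost without WT replicates 1 or 2 or CdxKO replicate 2, and for Fgf4 also without CdxKO replicate 1 (adjusted p up to 0.396 for Fgf8 and 0.528 for Fgf4). Dusp5 and Dusp14, phosphatases that act on MAP kinases, rose by 0.84 and 0.66 (adjusted p 0.00147 and 0.00202), with calls kept in 2 and 3 of the 6 fits without a library (adjusted p up to 0.182 and 0.216). No FGF receptor passed the test.

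Of 16 retinoic acid genes tested, 2 fell and 2 rose (25% called, against 5.31% of all genes tested). The receptors Rarg and Rxrg fell, out of 7 receptors and carriers with a median log2 fold change of -0.0024, and the enzymes Aldh1a2 and Rdh10 rose, out of 7 synthesis genes. Rarg, the retinoic acid receptor most characteristic of the caudal end, had 2713, 2448 and 2503 normalised counts in WT and 1613, 1921 and 1823 in CdxKO. Its groups were well apart (log2 fold change -0.51, SE 0.08, adjusted p 1.87e-08). Rxrg fell by 0.61 (adjusted p 0.00207), a call lost without WT replicate 1 or CdxKO replicate 1 (adjusted p up to 0.112). Aldh1a2 and Rdh10 rose with adjusted p of 0.0428 and 0.0316, and both calls were lost without any library other than CdxKO replicate 2 (adjusted p up to 0.868 and 0.592) and were not made by edgeR with the block. The degrading enzyme Cyp26a1 ranged from 6.77 to 82.1 normalised counts in WT and from 10.7 to 163 in CdxKO and was not called (adjusted p 0.165).

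Few Nodal and Notch genes passed the test. None of the 16 Nodal genes did (edgeR with the block called 1 higher), with estimates from -0.70 to 1.25, and the highest was that of Inhbb, an activin subunit with mean normalised counts of 16.4 in WT and 38.8 in CdxKO (adjusted p 0.0925, chosen after its values were seen). The most abundant of them, Acvr2b and Smad4, had log2 fold changes of -0.13 and -0.09 (adjusted p 0.299 and 0.487). Of 25 Notch and segmentation genes, with estimates from -1.36 to 1.00, only Hes7, the oscillating repressor of the segmentation clock, was called. It had 331, 54.2 and 280 normalised counts in WT and 182, 30.4 and 141 in CdxKO, a fall of 0.90 on the log2 scale (adjusted p 4.04e-04). The groups overlapped, since replicate 2 was low in both, and the decrease was seen within each matched pair. Among presomitic markers, Tbx6 and Msgn1 had adjusted p of 0.789 and 0.957.

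Transcription factors beyond the Hox genes changed in the caudal and TALE homeobox lists. Of 11 caudal epiblast genes tested, 5 fell, 3 of which were the mutated Cdx genes. The other 2 were Nkx1-2, a marker of the caudal lateral epiblast, and Sall4, a zinc finger factor, which fell by 0.27 and 0.31 on the log2 scale (adjusted p 0.00122 and 9.01e-04). Both calls held in 3 of the 6 fits without a library (adjusted p up to 0.106 and 0.168). In the TALE list, whose members include cofactors of HOX proteins, Meis2 rose and Meis3 and Irx3 fell, out of 15 tested. Meis2 (chromosome 2, 115863064 to 116065839) had 208, 142 and 131 normalised counts in WT and 609, 602 and 245 in CdxKO. Its groups did not overlap, although CdxKO replicate 3 was nearer to WT than the other 2 (log2 fold change 1.54, SE 0.22, adjusted p 2.85e-10). Meis3 fell by 0.55 and Irx3 by 1.09 on the log2 scale (adjusted p 1.33e-04 and 5.63e-05), and no Pbx gene passed. Mycn, which drives proliferation of progenitors, had 1697, 902 and 1801 normalised counts in WT and 909, 577 and 1129 in CdxKO (a log2 change of -0.74, adjusted p 1.03e-16), and its relative Mycl fell by 0.54 (adjusted p 9.03e-05).

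Promoter sequence is shown for 4 named genes that hold a short string found in sequences bound by CDX proteins. The letters TTTATNG, a core of sequences bound by CDX proteins, were searched on both strands of RefSeq promoters (GRCm38.p6, 250 bases before to 50 after the gene start). They were present in 12.5% of all 27025 genes with a promoter in the table, in 7.89% of the 10732 tested genes with one, in 8.67% of those called higher and in 11.6% of those called lower. Among all called genes, 32 of those higher and 22 of those lower held the letters. Of the named genes whose call held without each library in turn, 32 had a promoter in the table. The letters were in 4 of these, a share (12.5%) no higher than that of all genes with a promoter, namely Meis2, Tnc, Hes7 and Mycn. The first 2 rose and the last 2 fell. Each match is a description of the letters only, printed 5′ to 3′ on the strand of the gene with the match in capitals. The Tnc match is on the other strand, and a second start of Tnc is listed whose window holds the same match.
Meis2, minus strand, chr2:116064570-116064869: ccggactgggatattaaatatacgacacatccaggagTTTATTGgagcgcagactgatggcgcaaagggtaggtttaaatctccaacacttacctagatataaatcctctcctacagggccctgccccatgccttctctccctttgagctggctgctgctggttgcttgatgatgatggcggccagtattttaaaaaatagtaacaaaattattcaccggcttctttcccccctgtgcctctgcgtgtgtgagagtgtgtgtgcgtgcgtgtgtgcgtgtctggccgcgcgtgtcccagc
Tnc, minus strand, chr4:64046966-64047265: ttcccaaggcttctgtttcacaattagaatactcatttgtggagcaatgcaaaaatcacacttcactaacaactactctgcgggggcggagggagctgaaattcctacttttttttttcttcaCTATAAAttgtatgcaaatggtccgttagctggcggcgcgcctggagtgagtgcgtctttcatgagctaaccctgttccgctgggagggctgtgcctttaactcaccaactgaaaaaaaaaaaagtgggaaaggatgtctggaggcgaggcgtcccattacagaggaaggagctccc
Hes7, plus strand, chr11:69120203-69120502: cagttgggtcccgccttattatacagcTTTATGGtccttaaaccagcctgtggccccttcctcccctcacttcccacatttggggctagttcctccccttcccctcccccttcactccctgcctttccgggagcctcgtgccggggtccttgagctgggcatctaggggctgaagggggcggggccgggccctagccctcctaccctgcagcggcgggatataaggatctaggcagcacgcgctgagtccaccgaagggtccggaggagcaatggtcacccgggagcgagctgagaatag
Mycn, minus strand, chr12:12941787-12942086: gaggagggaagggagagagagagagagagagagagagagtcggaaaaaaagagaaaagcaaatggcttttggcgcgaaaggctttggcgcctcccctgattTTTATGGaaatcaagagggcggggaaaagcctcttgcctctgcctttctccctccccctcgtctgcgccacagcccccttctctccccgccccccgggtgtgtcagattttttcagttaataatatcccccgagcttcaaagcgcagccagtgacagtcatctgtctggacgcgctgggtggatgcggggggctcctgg

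Lists of other fates held few called genes, though the share called in some of them was above the 5.31% of all genes. Besides Hand1, Bmp4 was the only one of 13 lateral and extraembryonic mesoderm genes that rose, and none fell (15.4% called). The median log2 fold change of these 13 was 0.40, against -0.0019 over all genes tested. The defining factors Gata4, Tbx20 and Foxf1 had mean normalised counts under 50 in both groups and were not called. Runx1, a regulator of blood formation, was the only one of 14 blood and endothelial genes called, with 155, 96.7 and 103 normalised counts in WT and 282, 201 and 184 in CdxKO (a log2 change of 0.92, adjusted p 2.04e-04). Without the libraries numbered 1 its adjusted p was 0.135. The share called in this list (7.14%) was near that of all genes, and its median log2 fold change was -0.23, opposite in sign to Runx1. No anterior streak or endoderm gene was called out of 12, and no neural gene out of 19. The most abundant of these were Mixl1 and Tdgf1 (log2 fold changes 0.14 and 0.09) and Sox11 and Gbx2 (0.19 and 0.25, adjusted p 0.0748 and 0.741). With 1 library left out, up to 3 neural genes were called higher and up to 1 lower, and up to 1 anterior streak or endoderm gene higher. Mixl1 passed without CdxKO replicate 2, Gbx2 without CdxKO replicate 3, and Sox11 without WT replicate 3 or CdxKO replicate 3. Among 27 pluripotency genes (14.8% called) Pou5f1 and Klf4 rose and Sall4 and Lin28a fell, with log2 fold changes of 0.22, 0.62, -0.31 and -0.25. The calls of Pou5f1, Klf4 and Lin28a were lost in 5 or 6 of the 6 fits that left out a library (adjusted p up to 0.579, 0.303 and 0.290). The only germline gene called was Rhox5 (log2 fold change -0.43, adjusted p 0.0116), a call kept in 1 of the 6 fits (adjusted p up to 0.563).

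Ligands and receptors of guidance and adhesion moved in both directions, with 4 of 54 genes higher and 3 lower (13% called, against 5.31% of all genes tested). Epha5 fell and Epha4 rose, both Eph receptors that sort cells by contact with ephrins. Epha5 had 249, 32.9 and 194 normalised counts in WT and 42.6, 19.6 and 35.7 in CdxKO (a log2 change of -2.04, adjusted p 2.54e-10), where WT replicate 2 was as low as the CdxKO libraries. Epha4 had 934, 537 and 820 normalised counts in WT and 2029, 982 and 1180 in CdxKO, with no overlap (log2 fold change 0.85, adjusted p 4.49e-08), and its call was lost only without CdxKO replicate 2 (adjusted p 0.0752). The ephrin Efnb2 and the receptor Epha7 rose by 0.45 and 0.40 (adjusted p 2.60e-04 and 0.00140), with calls lost without WT replicates 1 or 2 or CdxKO replicate 1 (adjusted p up to 0.357 and 0.181). Sema3c rose and Sema4d fell (0.61 and -0.35, adjusted p 0.00342 and 0.00736), both with calls kept in 2 of the 6 fits (adjusted p up to 0.699 and 0.294). Of 12 heparan sulfate proteoglycan genes, Gpc3 was called (log2 fold change -0.27, adjusted p 0.0396, kept in 2 of the 6 fits).

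Of the 31 gene lists, extracellular matrix held the most genes that rose. Of 44 extracellular matrix and integrin genes tested, 15 rose and 1 fell (36.4% called, median log2 fold change 0.14). Across the fits without 1 library, 8 to 14 of them were called higher, and 10 were without the 3 libraries numbered 1. The basement membrane protein Nid1 had 1867, 1793 and 1287 normalised counts in WT and 2744, 3160 and 1983 in CdxKO, with no overlap (log2 fold change 0.67, SE 0.07, adjusted p 1.70e-16). Tnc, a matrix protein of remodelling tissue, had 703, 402 and 369 normalised counts in WT and 1178, 717 and 1011 in CdxKO (a log2 change of 1.02, adjusted p 1.11e-10). Col1a1 had 1202, 1532 and 626 in WT and 2010, 2952 and 1377 in CdxKO (a log2 change of 0.94, adjusted p 6.60e-13), and its groups overlapped only because WT replicate 2 exceeded CdxKO replicate 3. Sparc and Col5a1 rose by 0.47 and 0.40 (adjusted p 1.25e-13 and 1.43e-05). Integrins made up 6 of the 15, and Itgb3 and Itgav, the chains of a vitronectin receptor, had log2 fold changes of 1.02 and 0.32 (adjusted p 2.72e-05 and 2.51e-04, both chosen after their values were seen). The exception was Vcan, a large proteoglycan of migrating mesenchyme, which fell by 0.43 (adjusted p 1.14e-06).

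Several of these genes are also expressed by fibroblasts, on which the stem cells had been grown. The summed normalised count of 9 feeder fibroblast markers ranged from 2128 to 4047 in WT and from 3020 to 5738 in CdxKO. Of these markers Col1a1 and Col1a2 rose and Thy1 fell. The log2 fold change of Thy1 was -0.73 (adjusted p 9.84e-04, kept only without CdxKO replicate 3) and that of Col1a2 was 0.43 (adjusted p 0.0326, kept only without CdxKO replicate 1). The other 6 were not called. Dcn ranged from 14.0 to 40.6 normalised counts in WT and from 25 to 46.4 in CdxKO, Lum from 2.90 to 8.39 and from 5.36 to 6.58, Twist2 from 14.5 to 28.0 and from 23.2 to 30.1, and Postn from 14.9 to 50.3 and from 29.2 to 151. Col3a1 and Pdgfrb had negative estimates (-0.32 and -0.15). The part of feeder cells in the matrix result was not tested.

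The epithelial-mesenchymal list held calls on both sides of that transition. Of 31 genes 6 rose and none fell (19.4% called, against 5.31% of all genes tested). Of the 6, 2 were epithelial and 4 mesenchymal. Vim, the intermediate filament of mesenchymal cells (chromosome 2, 13573927 to 13582826), had 20603, 18469 and 16229 normalised counts in WT and 35045, 25945 and 24378 in CdxKO, with no overlap (log2 fold change 0.62, SE 0.06, adjusted p 2.89e-20). Fn1, Mmp14 and Tgfb2 rose by 0.45, 0.30 and 0.49, and the tight junction genes Cldn6 and Cldn7 by 0.64 and 0.53. Vim alone of the 6 kept its call without each library in turn, while Cldn7 lost it without WT replicate 2 or CdxKO replicate 3 (adjusted p up to 0.0932) and the other 4 in 3 to 5 of the 6 fits (adjusted p up to 0.528). Genes of the cell cortex and membrane, chosen after their values were seen, also rose in every matched pair. Axl, a receptor tyrosine kinase, Anxa1 and Anxa2, annexins that bind membranes, S100a6, a calcium-binding partner of annexins, Cavin1, a coat protein of caveolae, and Gsn, which severs actin, had log2 fold changes of 0.90, 1.02, 0.94, 1.14, 0.71 and 0.91. Their adjusted p were between 4.22e-16 and 7.34e-12, and each kept its call without each library in turn.

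The amino acid and stress response list had the same share of calls. Of 22 amino acid and stress response genes, all had positive estimates and 8 rose (36.4% called, median log2 fold change 0.32). Between 3 and 7 were called across the fits without 1 library, and 4 without the libraries numbered 1. Atf4, the transcription factor that activates this programme, had 4715, 4222 and 6728 normalised counts in WT and 5967, 6233 and 9518 in CdxKO. WT replicate 3 was above CdxKO replicates 1 and 2, but each matched pair rose (log2 fold change 0.47, adjusted p 8.91e-07, and 0.0975 without CdxKO replicate 1). The serine and glycine enzymes Psph, Shmt2 and Psat1 and the asparagine synthetase Asns rose by 0.46, 0.29, 0.21 and 0.52 (adjusted p 2.01e-04, 0.00119, 0.0214 and 0.00602). Psph kept its call without each library in turn, Shmt2 lost it without WT replicate 2 or CdxKO replicate 3 (adjusted p up to 0.0916), Asns lost it without CdxKO replicates 1 or 3 (adjusted p up to 0.155), and Psat1 lost it each time (adjusted p up to 0.497). Of the 252 solute carrier genes tested, 16 rose and 4 fell (7.94% called, near the 5.31% of all genes tested). The 16 included 7 amino acid carriers of the Slc1, Slc3, Slc7 and Slc43 families. These were chosen after their values were seen, so they give no share of such carriers called. Slc7a11 and Slc3a2 also belong to the 8 called genes of the list above. Slc7a11, Slc7a3, Slc1a4, Slc1a5 and Slc43a2 kept their calls without each library in turn (log2 fold changes 1.3, 0.52, 0.38, 0.36 and 0.52), while Slc7a1 and Slc3a2 (0.45 and 0.25) did not, with adjusted p up to 0.463 and 0.586. Slc43a2 lies in the stretch of chromosome 11 described below.

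**Figure D4:**
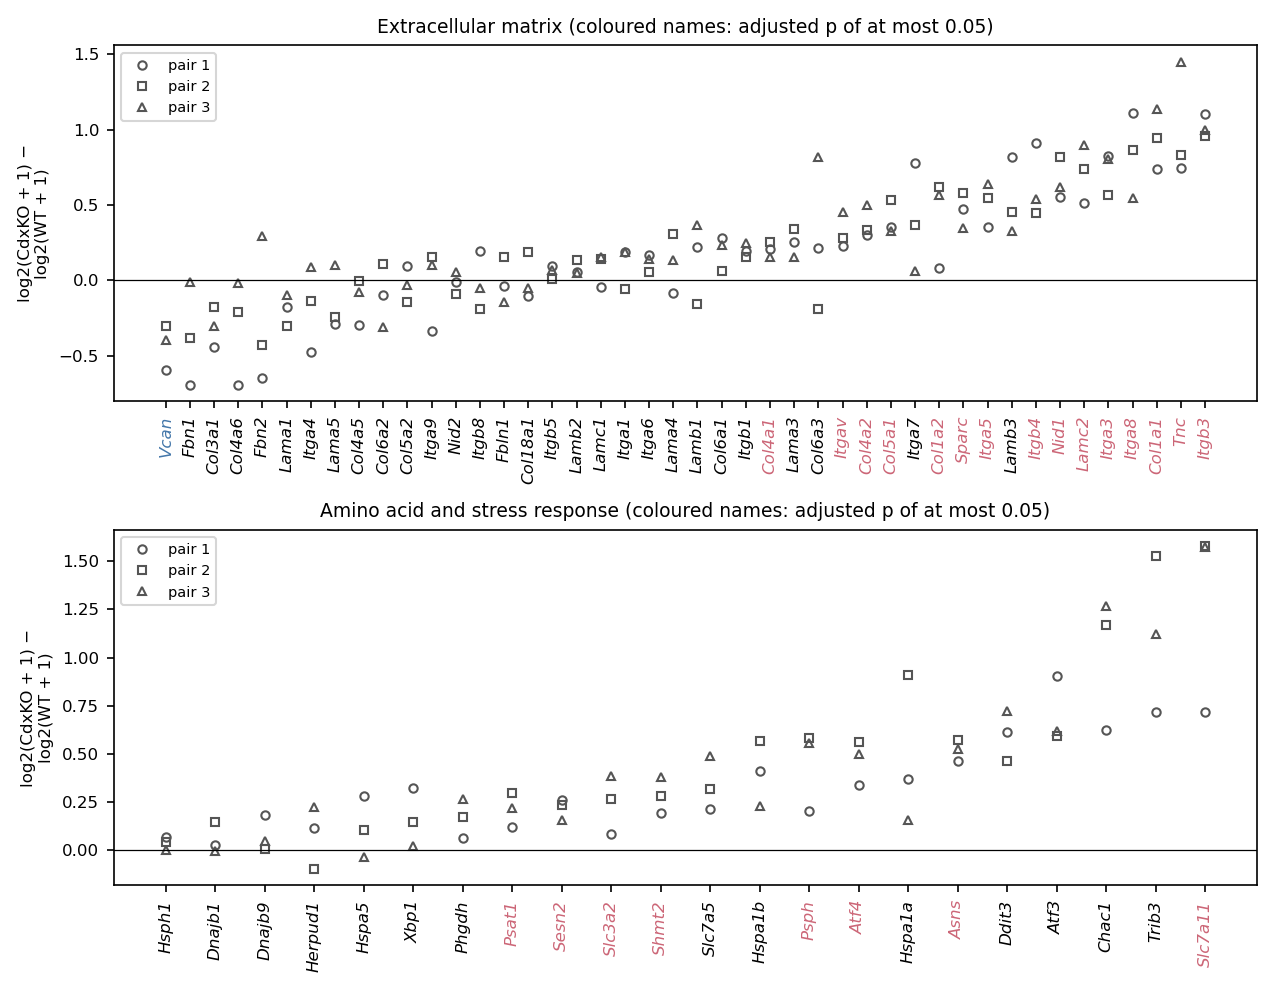
Log2 ratio of normalised counts plus 1 (CdxKO over WT) in each of the 3 matched pairs, for every tested gene of the extracellular matrix list (top) and of the amino acid and stress response list (bottom). Names in red rose and the name in blue, Vcan, fell. Symbols give the pair, and Tnc, Col1a1, Nid1 and Slc7a11 are above 0 in all 3 pairs.

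Fewer genes changed in the other metabolic lists. Of 24 cholesterol genes 4 rose (16.7% called, against 5.31% of all genes tested). Among them were the sterol sensor Insig1 and the squalene synthase Fdft1 (log2 fold changes 0.46 and 0.22). Insig1 kept its call without each library in turn and Fdft1 in only 1 of the 6 fits (adjusted p up to 0.327). Hk2, the first enzyme of glycolysis, rose by 0.31 (adjusted p 5.02e-05). Slc2a3, a neuronal and embryonic glucose transporter, fell instead, with 24445, 35823 and 13182 normalised counts in WT and 11975, 23340 and 10041 in CdxKO (a log2 change of -0.67, adjusted p 8.19e-04), a call lost without WT replicates 1 or 2 (adjusted p up to 0.0771). The lactate carrier Slc16a3 rose by 0.36 (adjusted p 0.00145) and kept its call only without WT replicate 2 (adjusted p up to 0.574). Among 15 hypoxia targets Bhlhe40, a repressor that hypoxia also induces, rose by 0.60 (adjusted p 4.31e-13). P4ha1 and Vegfa both rose by 0.33 (adjusted p 0.00644 and 0.0129), with calls kept in 2 of the 6 fits (adjusted p up to 0.234 and 0.377). Scd2 was the one fatty acid gene called of 10 (log2 fold change 0.22, adjusted p 0.0333, kept in 1 of the 6 fits).

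Growth control genes that rose included p53 targets and early response genes. Of 17 p53 targets 5 rose (29.4% called, against 5.31% of all genes tested). Among them were the membrane protein Perp, the p53 ubiquitin ligase Mdm2 and the kinase Plk2 (log2 fold changes 0.49, 0.33 and 0.36, adjusted p 1.80e-09, 3.25e-05 and 3.75e-05). In Perp, Mdm2 and Plk2 every CdxKO library was above every WT library, and the calls held without each library in turn. Mdm2, for example, had 5422, 5393 and 5889 normalised counts in WT and 6910, 7305 and 6828 in CdxKO. Cdkn1a, the cell cycle inhibitor p21, also rose without overlap (0.49, adjusted p 0.0246), but its call held only without CdxKO replicate 3 (adjusted p up to 0.417). Cdkn2b, which blocks CDK4 and CDK6, rose by 0.85 (adjusted p 0.00964, kept in 1 of the 6 fits), while calls of Ccne2 and Tnfrsf10b (0.28 and 0.19) were lost in each of the 6 fits. Among 20 immediate early genes 5 rose (25% called). Fosl2, an AP-1 subunit, was the one whose call held each time (766, 751 and 650 normalised counts in WT against 1141, 1221 and 949 in CdxKO, adjusted p 8.99e-06). Ier5, Ier3, Fosl1 and Ctgf rose by 0.41, 0.61, 1.01 and 1.13, with calls kept in 1 to 3 of the 6 fits (adjusted p up to 0.610). Ctgf, with Ajuba, Tead1 and Amotl2, also made up the 4 of 14 Hippo genes that rose (28.6% called). Each of these calls was lost in at least 4 of the 6 fits (adjusted p up to 0.569). Of 10 Hedgehog genes Cdon rose (0.36, adjusted p 0.0102, kept in 1 of the 6 fits).

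Housekeeping and chromatin classes did not stand out from the background. Of 78 ribosomal protein genes 1 was called, of 83 subunits of oxidative phosphorylation and of 38 proteasome subunits none, and of 10 DNA methylation genes none (Trim28 and Dnmt1 had log2 fold changes of 0.03 and -0.15). The methyltransferase Dnmt1 was lower in all 3 pairs, with an adjusted p of 0.0534. Trophoblast markers were not called, with Eomes and Tfap2c at log2 fold changes of 0.01 and -0.49. Elf5 was at the floor, with at most 2.90 normalised counts in WT and none in CdxKO or T/BraKO, and had no adjusted p. Zinc finger proteins named Zfp were called in 4.79% of 376 genes, close to the background, but in a one-sided way, with 4 higher and 14 lower. Of the 14, 7 came from clusters on chromosomes 2 and 4 and were picked out once their values were known. They had log2 fold changes between -0.89 and -0.33. The calls of Zfp966, Zfp967 and Zfp990 held without each library in turn. Zfp966 and Zfp967 held identical counts in every library, so reads were shared between copies which leaves both values uncertain.

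Neighbouring genes on chromosome 11 rose together, a pattern chosen after the values were seen. From Hic1 to Nxn (GRCm38 chromosome 11, 75164565 to 76399140), 28 genes were tested, of which 22 rose and none fell, against 46 higher and 23 lower of the other 1123 genes tested on the chromosome. The genes of the stretch have unrelated functions. Ywhae, a 14-3-3 protein, had 44847, 43611 and 46671 normalised counts in WT and 61730, 60528 and 60472 in CdxKO. Its groups did not overlap (log2 fold change 0.44, adjusted p 1.70e-18). Myo1c, a membrane motor, Crk, an adaptor of tyrosine kinases, Rpa1, a subunit of the single-strand DNA binding complex, and Pitpna, a lipid transfer protein, had log2 fold changes of 0.82, 0.48, 0.39 and 0.42 (adjusted p 6.72e-24, 7.55e-20, 1.56e-11 and 1.44e-09).

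The limits of the stretch were set at its first and last called genes, which fixes that the genes beside it were not called. The median log2 fold change was 0.40, a ratio of 1.32, and the medians of the single matched pairs were 0.45, 0.40 and 0.40. The 10 tested genes before the stretch had a median of -0.04 and the 10 after it of -0.02, and none of these 20 was called. In T/BraKO the same 28 genes had a median of -0.0049 against WT, with the same WT libraries as controls, and in the direct contrast CdxKO was above T/BraKO by a median of 0.40. Among 12050 windows of 15 consecutive genes along the genome, the highest median was 0.48 and lay inside this stretch, which was itself picked out by its values. The highest elsewhere was 0.32, in a region of chromosome 7 with imprinted genes such as Snrpn and Ndn, and the lowest was -0.34, in the zinc finger cluster of chromosome 4. Called genes in the stretch numbered 13 to 17 when 1 library was left out, lowest without WT replicate 3 or CdxKO replicate 3, 21 by edgeR with the block and 6 without the block by DESeq2. The libraries hold RNA only, and DNA copy number was not measured here.

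**Figure D5:**
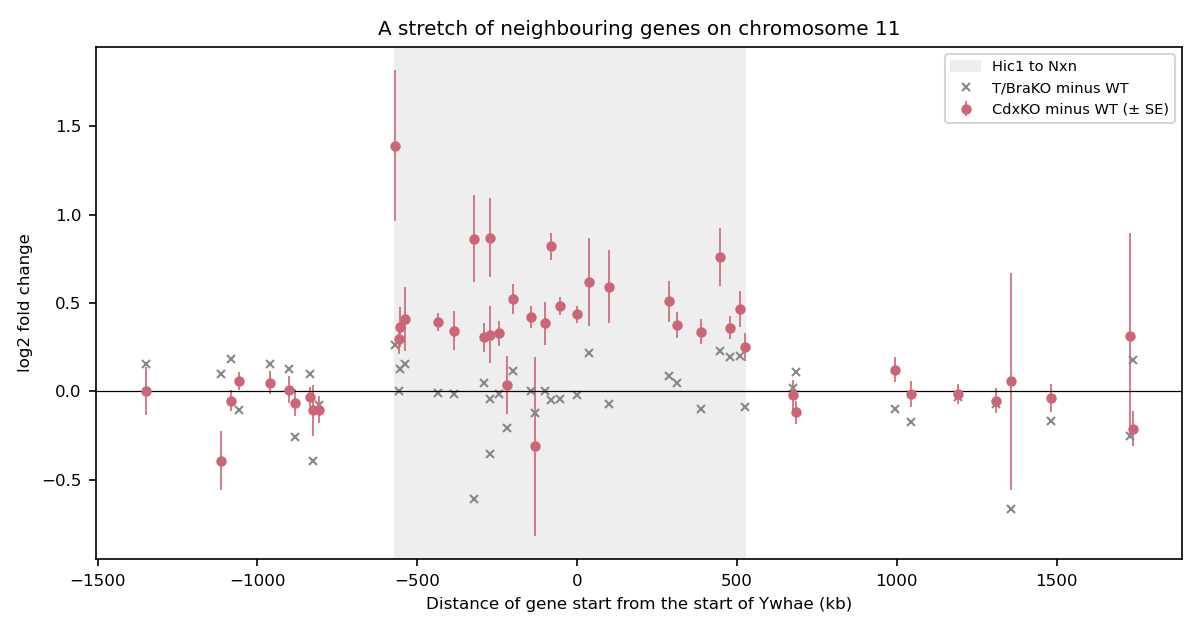
Log2 fold change of tested genes on chromosome 11 against the distance of their start from that of Ywhae, in kb. Red points with SE bars are CdxKO minus WT and grey crosses are T/BraKO minus WT, which shares the WT libraries. In the shaded stretch from Hic1 to Nxn the red points sit around 0.40, and outside it, as for the crosses, around 0.

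Against T/BraKO, some of the changes in CdxKO were shared and others were not. Both comparisons use the same WT libraries, so their values are set side by side and the mutants are also contrasted directly (14.6% of 14936 genes called). Kitl and Wnt3a were lower than WT in both (T/BraKO minus WT -1.24 and -1.19, adjusted p 2.08e-14 and 0.00339), and neither passed in the contrast of the mutants (adjusted p 0.0813 and 0.637). Fzd10, which fell in CdxKO, was higher than WT in T/BraKO (log2 fold change 0.45), a difference of -1.91 between the mutants (adjusted p 2.19e-166). Meis2, Nog and Ptgs2 rose in CdxKO but fell in T/BraKO (-1.20, -1.58 and -1.18), and differed between the mutants by 2.75, 2.83 and 2.65. Vim and Col1a1 followed the same pattern (T/BraKO minus WT -0.62 and -0.96). Hand1 had 42.3 ± 8.97 normalised counts in T/BraKO (SD, n = 3) and differed between the mutants by 2.21 (adjusted p 3.21e-15). Fgf4 and Hes7 were lower than WT in both mutants, by 1.36 and 0.90 in T/BraKO.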

How the data were processed

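The authors sequenced poly(A) RNA from 3 WT, 3 CdxKO and 3 T/BraKO cultures as strand-specific 76-base single reads, trimmed them with cutadapt 1.16, aligned them to mm10 with STAR 2.5.2a and deposited RSEM 1.3.0 expected counts per RefSeq gene, with TPM values beside them. For the count model the expected counts were rounded, and the deposited TPM values served only to compare levels between genes. Groups and replicate numbers came from the labels. DESeq2 1.42.0 (R 4.3.3) was fitted to all 9 libraries with the replicate number as a block and genotype, and the Wald test of CdxKO against WT was adjusted over all genes tested. The study's methods name DESeq2 but neither a block nor a joint fit. Samples of the same number correlated in their deviations from the group means between 0.532 and 0.814 over 9 pairs, and samples of different number between -0.690 and 0.134 over 18. P-values measure the spread between these samples, which may be partly technical.

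Named genes were the targeted and identity genes, the 12 with the largest change per direction among called genes with a mean of at least 50 normalised counts and each pair moved the same way, and up to 6 called genes per list by adjusted p, or the 2 most abundant where none was called. The members, lists and tests were chosen with earlier results of these data known. The scripts were tested on simulated data. Alternatives were no block, TMM normalisation, dropping genes without 10 counts in 3 or more libraries, edgeR 4.0.16, 6 libraries, a threshold of 0.01, a log2 fold change above 1 and leaving out each library. Gene coordinates are from GENCODE on GRCm38. Some genes that met the rule are not reported here.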

Additional observations from a re-analysis of the deposited data

How the results depend on the processing

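TMM factors gave 450 genes higher and 301 lower, the filter on low counts 473 and 269, edgeR with the replicate block 424 and 257, and the 6 libraries alone 447 and 204. No called gene was called in the opposite direction in any of these fits, and the median over all genes shifted by at most 0.0081. Without the replicate block DESeq2 called 56 higher and 60 lower, and edgeR 5 and 11. A threshold of 0.01 left 260 and 165, and a log2 fold change above 1 left 32 and 49. Leaving out 1 library at a time gave 163 to 414 higher and 105 to 217 lower, and leaving out all 3 libraries numbered 1, chosen after seeing the data, gave 105 and 71. Of the 105 named genes called, 47 kept their call without each library in turn, 80 were called by edgeR with the block and 25 without the block. The cause of these differences was not tested.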

Other observations

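At the boundary of the pseudoautosomal region, which X and Y chromosomes share, 2 genes chosen after their values were seen fell in CdxKO. Mid1, a microtubule-associated ubiquitin ligase, had 11460, 13527 and 11890 normalised counts in WT and 4540, 6213 and 5498 in CdxKO (log2 fold change -1.19, DESeq2 adjusted p 4.41e-65). Erdr1 fell by 1.05 on the log2 scale (adjusted p 3.29e-28). Both kept their calls without each library in turn.

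Spans with clustered zinc finger genes on GRCm38 chromosome 4 (145510759 to 147809788) and chromosome 2 (175918881 to 178034022) had 3 of 15 and 7 of 18 genes tested lower. The median log2 fold changes were -0.34 and -0.26 and no gene was higher. Over all genes tested, 1.91% fell. The limits were set by called genes picked for their values, so the counts and medians follow in part from that choice. Zfp966 and Zfp967, with identical counts, both enter the 7. In T/BraKO against WT both medians were -0.12. Among secreted factors chosen after their values were seen, Gdf11, a TGF-beta ligand that patterns the trunk to tail transition, fell by 0.84 on the log2 scale (adjusted p 1.55e-07), and Csf1, the growth factor of macrophages, rose by 0.72 (adjusted p 2.89e-07). Cd44, a receptor of hyaluronan, rose by 0.39 (adjusted p 6.35e-05). These 3 also kept their calls without each library in turn.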
